A study of Rattus norvegicus with 2 samples.

Results

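Ribosomes are assembled in the nucleolus, where RNA polymerase I transcribes the ribosomal RNA precursor and a large set of proteins modifies, cuts and folds it around the ribosomal proteins. Small nucleolar ribonucleoproteins (snoRNPs) guide the chemical modification of the RNA, the small subunit processome builds the precursor of the small subunit, and a separate set of factors builds the large subunit. In liver, as in other tissues, this machinery is known to be drawn on when cells grow before they divide. A list of 54 genes of these factors and of RNA polymerase I was examined here in the liver that remains once part of the organ has been cut away, an operation called partial hepatectomy (PH). The genes were found by platform gene symbol or its synonym, and 52 of the 54 were matched, among 14217 genes measured in all.

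The study held 2 groups of rats, 1/3PH and 2/3PH, named for the fraction of the liver removed, with tissue taken at 24 h in both. Each group is a pool of RNA from 3 rats, read on 1 Affymetrix array, so that 6 rats gave 2 measurements, with no unoperated or sham-operated liver. Per the series' design text, the comparison was made because DNA replication is strong after 2/3PH and slight after 1/3PH. The labels give no strain, sex or age of the rats, and both arrays are liver RNA with no treatment other than the operation.

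Signals are in the arbitrary units of the MAS 5.0 algorithm, which merges the probes of a probe set into 1 value and scales each array to a common mean. Where a gene had several probe sets, that with the highest mean log2 signal was taken. The log2 ratio is the log2 signal of the 2/3PH array minus that of the 1/3PH array, and a ratio of 1 is a 2-fold difference. A gene had to reach a floor, a mean log2 signal of 6.48 (a signal of 89.2), which is the median over all probe sets that are not controls. Since each group has a single array, the spread between animals is unknown, and the differences given here describe these 2 pools without a test. The SD of the log2 ratio between probe sets of the same gene, over 2067 genes with several above the floor, was 0.33, and it covers error within the arrays only.

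Of the 54 listed genes, 51 reached the floor. Noc3l, a large subunit assembly factor, stayed under it on both arrays, at signals of 40.6 after 1/3PH and 70.4 after 2/3PH, and no fold is given for it. Npm1, the nucleolar chaperone nucleophosmin, lies on probe sets that the annotation pairs with a second symbol as well, and its relative Npm3 was not matched to a named probe set. Neither has a value here.

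The ribosome biogenesis genes were higher after 2/3PH nearly throughout, by amounts that were mostly between 1.5-fold and 3-fold. Of the 51 genes, 50 had a log2 ratio above 0, and 21 (41.2%) were at least 2-fold higher, while none was 2-fold lower. Over all 9514 genes above the floor, 52.9% had a ratio above 0, 6.12% passed the 2-fold limit as higher and 3.68% as lower. The median log2 ratio of the 51 genes was 0.88, a 1.84-fold difference, against 0.035 for all genes above the floor, and the middle of their distribution ran from 0.59 at the first quartile to 1.15 at the third. At a limit of 1.5-fold, 38 of the 51 were higher, against 15.8% of all genes, and at 3-fold 2 were, against 2.24%. When the arrays were scaled to the spiked poly-A controls, the count past 2-fold was 39 and the median 1.31, and over all genes 16.4% were past 2-fold as higher and the median was 0.47.

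**Figure D1:**
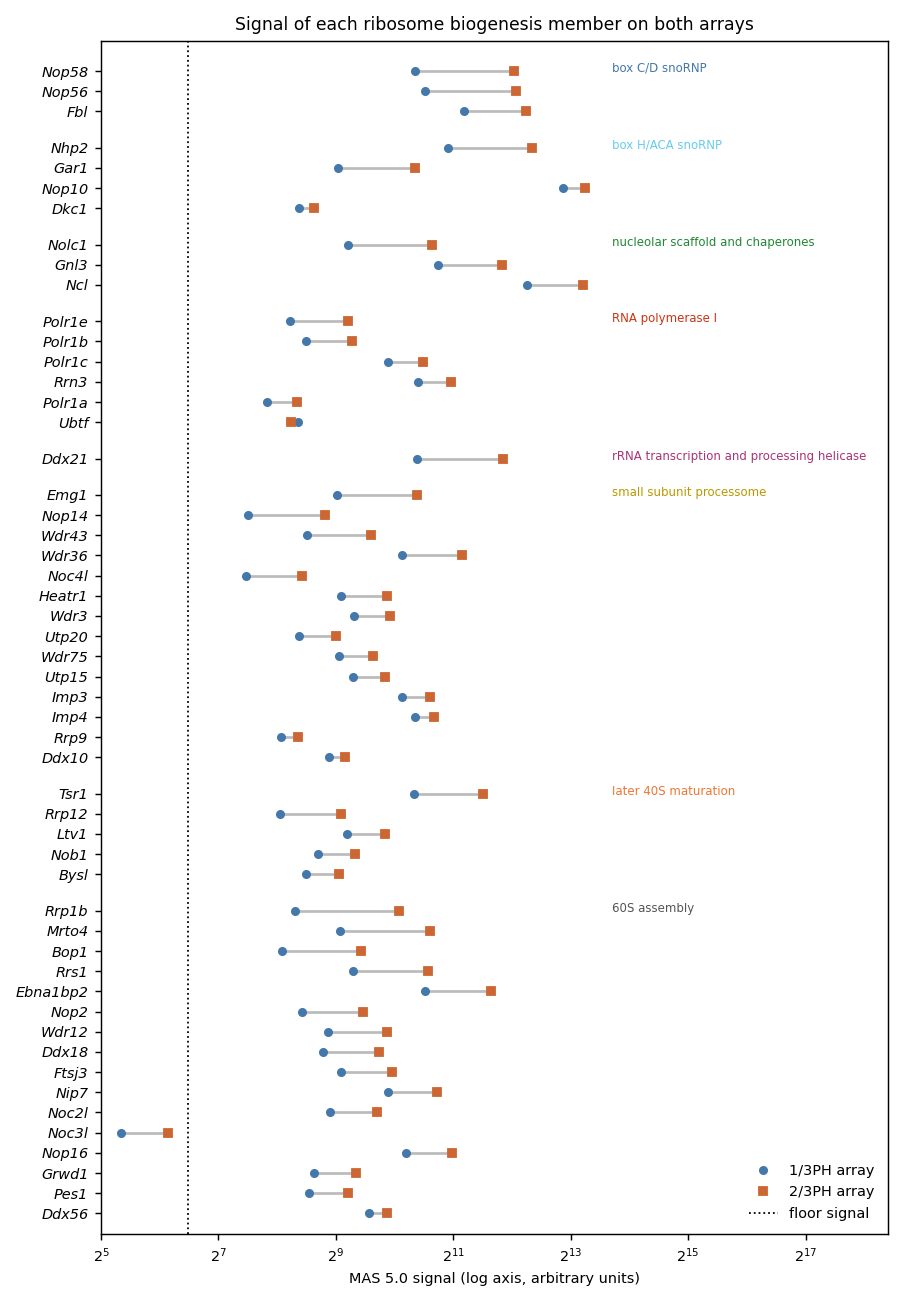
MAS 5.0 signal (log axis) of the 52 matched genes on the 1/3PH array (circles) and the 2/3PH array (squares), ordered by role and then by difference, with the floor signal of 89.2 as a dotted line. The square lies to the right of the circle for every gene except Ubtf, and Noc3l is the only gene left of the floor; signals of different genes come from different probes and are not comparable as levels.

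Promoter sequences were examined because the genes were higher together. RefSeq promoter windows of assembly GRCr8, from 250 bases before to 50 bases after each gene's annotated start, were at hand for 51 of the 54 genes and for 27457 genes in all, with 1 start per gene. Short motifs were searched on both strands, and none of the spellings used contains another. The E-box CACGTG, the sequence that Myc with its partner Max is known to bind, was in 15 of the 51 windows (29.4%), against 6.65% of all windows and 9.82% of the 8018 windows of genes above the floor. The motif CCGGAAG, a core that ETS family factors are known to bind, was in 24 of the 51 (47.1%), against 9.22% of all windows and 19.5% of those above the floor. The known site of the factor NRF1 was in 10 windows (19.6%), against 4.71% and 10.9%. Median G+C content was 56.0% in the 51 windows, 61.0% in those of genes above the floor and 52.3% over all. The pair CG, which each of these motifs contains, occurred at a median of 22 per window in the 51. That median was 21 above the floor and 7 over all, so the windows of all genes are unlike the 51 in this respect. A match is a description of letters and not a bound site.

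Outside the transcribed part, E-boxes stood before the start of 8 listed genes, and the bases around each are given so that their flanks can be compared, written 5′ to 3′ on the gene's strand and ending at the start where the E-box lies close to it. Capitals mark the E-box.

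Gnl3 (chr16:6219783-6219834, minus strand): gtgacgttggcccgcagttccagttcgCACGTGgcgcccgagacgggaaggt
Ddx18 (chr13:35295973-35296012, minus strand): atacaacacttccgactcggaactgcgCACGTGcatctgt
Pes1 (chr14:83074269-83074328, plus strand): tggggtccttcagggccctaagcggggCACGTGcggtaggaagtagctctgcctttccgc
Ltv1 (chr1:9398586-9398645, minus strand): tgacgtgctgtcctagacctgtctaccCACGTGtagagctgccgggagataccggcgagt
Npm3 (chr1:254546675-254546734, minus strand): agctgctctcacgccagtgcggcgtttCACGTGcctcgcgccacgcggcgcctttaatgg
Utp20 (chr7:25102944-25103003, minus strand): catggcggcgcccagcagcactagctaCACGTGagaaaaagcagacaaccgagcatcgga
Wdr75 (chr9:55395045-55395104, plus strand): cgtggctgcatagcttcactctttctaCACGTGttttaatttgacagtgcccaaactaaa
Dkc1 (chrX:157751440-157751499, plus strand): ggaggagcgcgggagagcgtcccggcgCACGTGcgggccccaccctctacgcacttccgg

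The E-box began 13 bases before the annotated start in Ddx18, 25 in Gnl3, 50 in Pes1, 58 in Npm3, 61 in Ltv1, 127 in Utp20, 160 in Wdr75 and 184 in Dkc1. In 7 further genes, Rrp12, Noc3l, Tsr1, Fbl, Ebna1bp2, Bysl and Nop2, it lay within the first 50 transcribed bases, which are not shown. The 250 bases before the start are given next for the highest members of the box C/D particle and of large subunit assembly, Nop58 and Rrp1b, for Fbl, and for Ubtf, the one gene of the list with a ratio below 0. Capitals mark the ETS core CCGGAAG, its reverse complement, and the NRF1 motif.

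Nop58 (chr9:68614824-68615073, plus strand): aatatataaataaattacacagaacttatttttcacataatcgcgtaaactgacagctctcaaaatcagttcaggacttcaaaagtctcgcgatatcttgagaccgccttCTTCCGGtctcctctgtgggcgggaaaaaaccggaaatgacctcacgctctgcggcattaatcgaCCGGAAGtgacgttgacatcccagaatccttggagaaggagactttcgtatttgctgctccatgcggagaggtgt
Fbl (chr1:92597157-92597406, plus strand): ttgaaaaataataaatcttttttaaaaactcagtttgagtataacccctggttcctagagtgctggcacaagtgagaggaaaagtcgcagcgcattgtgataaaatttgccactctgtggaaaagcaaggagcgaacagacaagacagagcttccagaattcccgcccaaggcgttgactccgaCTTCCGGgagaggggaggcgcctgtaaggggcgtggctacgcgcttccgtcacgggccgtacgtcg
Rrp1b (chr20:10122575-10122824, plus strand): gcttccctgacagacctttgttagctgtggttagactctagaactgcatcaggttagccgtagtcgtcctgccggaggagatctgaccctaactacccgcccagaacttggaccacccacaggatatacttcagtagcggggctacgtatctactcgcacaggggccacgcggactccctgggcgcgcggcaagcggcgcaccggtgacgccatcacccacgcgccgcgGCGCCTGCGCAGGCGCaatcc
Ubtf (chr10:87773089-87773338, minus strand): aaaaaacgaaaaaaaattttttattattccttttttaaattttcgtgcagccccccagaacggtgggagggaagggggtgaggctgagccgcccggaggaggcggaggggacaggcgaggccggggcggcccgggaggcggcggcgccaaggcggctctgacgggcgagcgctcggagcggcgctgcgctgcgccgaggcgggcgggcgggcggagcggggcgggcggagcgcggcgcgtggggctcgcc

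The Nop58 stretch held the ETS core at 2 places and the Fbl stretch at 1, the Rrp1b stretch held overlapping copies of the NRF1 motif, and the Ubtf stretch held none of these letters. For the E-box and for the ETS core, the ratios of genes with the motif lay within the range of those without it. Of 13 measured genes that hold an E-box, 6 were at least 2-fold higher, with ratios from 0.26 to 1.18 and a median of 0.95. Of 35 without one, 12 were, with ratios from -0.12 to 1.77 and a median of 0.80. With the ETS core, 11 of 23 were at least 2-fold higher at a median of 0.99, and without it 7 of 25 at a median of 0.78. The 4 genes with the highest ratios, Rrp1b, Nop58, Nop56 and Mrto4, had no E-box in the window.

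**Figure D2:**
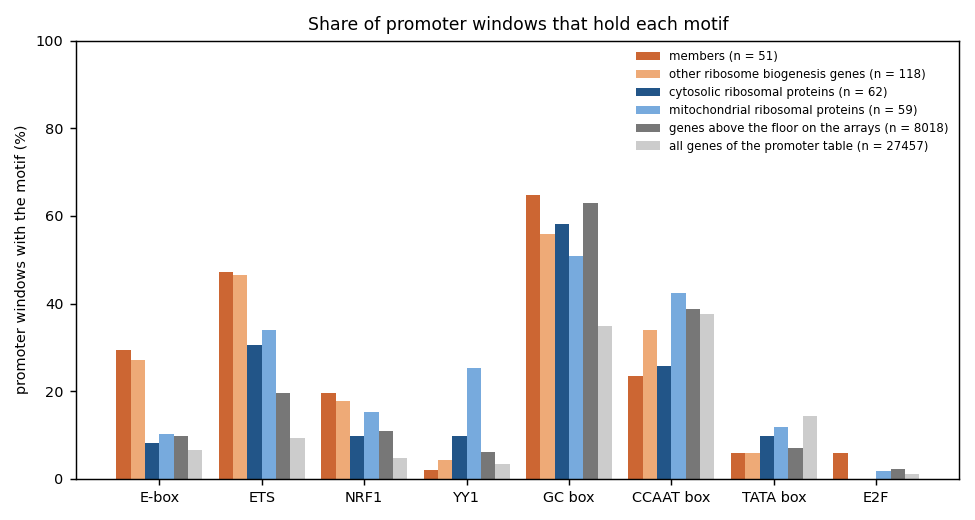
Percent of promoter windows that hold each motif, for the 51 listed genes, other ribosome biogenesis genes, cytosolic and mitochondrial ribosomal proteins, genes above the floor and all genes. E-box shares of 29.4% and 27.1% stand at the left for both ribosome biogenesis lists, beside 8.06% for cytosolic ribosomal proteins, and the YY1 bar is tallest for mitochondrial ribosomal proteins, at 25.4%.

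The other ribosome biogenesis genes described further on had an E-box in 32 of 118 windows (27.1%) and the ETS core in 55 (46.6%). Cytosolic ribosomal protein genes had the E-box in 5 of 62 (8.06%) and the ETS core in 19 (30.6%), and mitochondrial ribosomal protein genes in 6 of 59 (10.2%) and in 20 (33.9%). Genes of RNA polymerase III and its factors had the E-box in 4 of 16 (25%), a share near that of the ribosome biogenesis lists, and the ETS core in 6 (37.5%). Of 6 windows of the RNA polymerase II core, none had the E-box and 3 (50%) had the ETS core. The motif AAGATGGC, the known core of YY1 sites, was in 1 of the 51 windows, the GC box GGGCGG in 33 and the CCAAT box CCAAT in 12, at shares of 1.96%, 64.7% and 23.5%. Above the floor those shares were 6.06%, 62.9% and 38.7%, and over all windows 3.44%, 34.9% and 37.7%. The TATA box TATAAA and the E2F motif TTTCCCGC were each in 3 of the 51 (5.88%), against 14.3% and 1.03% of all windows and 6.95% and 2.26% of those above the floor.

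Among the factors that carry out RNA modification, the scaffold proteins of the box C/D snoRNPs, Nop58 and Nop56, stood highest. These particles use guide RNAs to place methyl groups on ribosomal RNA, and Nop56 and Nop58 lie side by side in the particle. Nop58 had a signal of 1303 after 1/3PH and of 4217 after 2/3PH, a 3.24-fold difference. Nop56 had signals of 1468 and 4315, a 2.94-fold difference. Fbl, fibrillarin, is the methyltransferase of the same particle, and its signals were 2315 and 4826, or 2.08-fold. All 3 genes of the particle were thus past 2-fold, and a second Nop56 probe set, at 92.1 and 262, gave a log2 ratio of 1.51 beside 1.56 for the one used.

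The box H/ACA snoRNPs, which convert uridine to pseudouridine in ribosomal RNA, were split. Nhp2, a core RNA-binding protein of the particle, had signals of 1933 and 5198, a log2 ratio of 1.43. Gar1, another core protein, had signals of 523 and 1301, a log2 ratio of 1.31. The catalytic subunit is dyskerin, encoded by Dkc1, and here the values lay close together, at 332 and 397, a log2 ratio of 0.26. Nop10, the small protein that sits against dyskerin, had signals of 7452 and 9641, a log2 ratio of 0.37. Nhp2 and Gar1 were thus past 2-fold while Dkc1 and Nop10, of the same particle, were not, and each gene rests on 1 probe set.

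Nucleolar proteins with broader roles were near or past 2-fold. Nolc1, a nucleolar phosphoprotein that accompanies snoRNPs, had signals of 593 and 1589, a log2 ratio of 1.42, and 1.34 on a second probe set. Gnl3, the nucleolar GTPase nucleostemin, had signals of 1706 and 3630.4, or 2.13-fold. Ncl, nucleolin, an abundant RNA-binding protein of the nucleolus, had signals of 4865 and 9465, a log2 ratio of 0.96, just short of 2-fold.

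None of the 6 listed genes of RNA polymerase I, which include the initiation factors Rrn3 and Ubtf, was 2-fold higher. Their median log2 ratio was 0.59, beside 0.62 for the small subunit processome and 0.65 for later small subunit factors. The ratios of the polymerase subunits ran from 0.51 to 0.99. The largest was that of Polr1e, a subunit particular to this polymerase, with signals of 299 and 594, a log2 ratio of 0.99. Polr1b, the second largest subunit, had signals of 359 and 619.8, a log2 ratio of 0.79. Polr1c, a subunit shared with RNA polymerase III, had signals of 942 and 1434, a log2 ratio of 0.61. Polr1a is the largest subunit and holds much of the catalytic centre, and its signals were 228 and 325, a log2 ratio of 0.51.

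Of the initiation factors of this polymerase, Rrn3 lay near the median of the group and Ubtf was its lowest gene. Rrn3, also called TIF-IA, links the polymerase to its promoter and is a known target of growth signals, and its signals were 1346 and 1993. Its log2 ratio was 0.57, and 0.29 on a second probe set with signals of 261 and 319. Ubtf, the upstream binding factor that coats active ribosomal DNA, had signals of 329 and 303. Its log2 ratio of -0.12 was the one value below 0 among the 51 genes, turned positive under scaling to the hybridisation controls and to the poly-A controls (0.31), and was 0.075 on a second probe set at 284 and 299. On either probe set the Ubtf values of the arrays were close, with a log2 ratio smaller in size than 0.33, the SD between probe sets of a gene.

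Ddx21, a DEAD-box helicase that acts both in transcription by this polymerase and in processing of the transcript, had signals of 1328 and 3703, a log2 ratio of 1.48. Its second probe set, at 166 and 165, gave -0.012. Its call therefore rests on the choice of probe set, the widest such gap between probe sets above the floor among the listed genes.

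**Figure D3:**
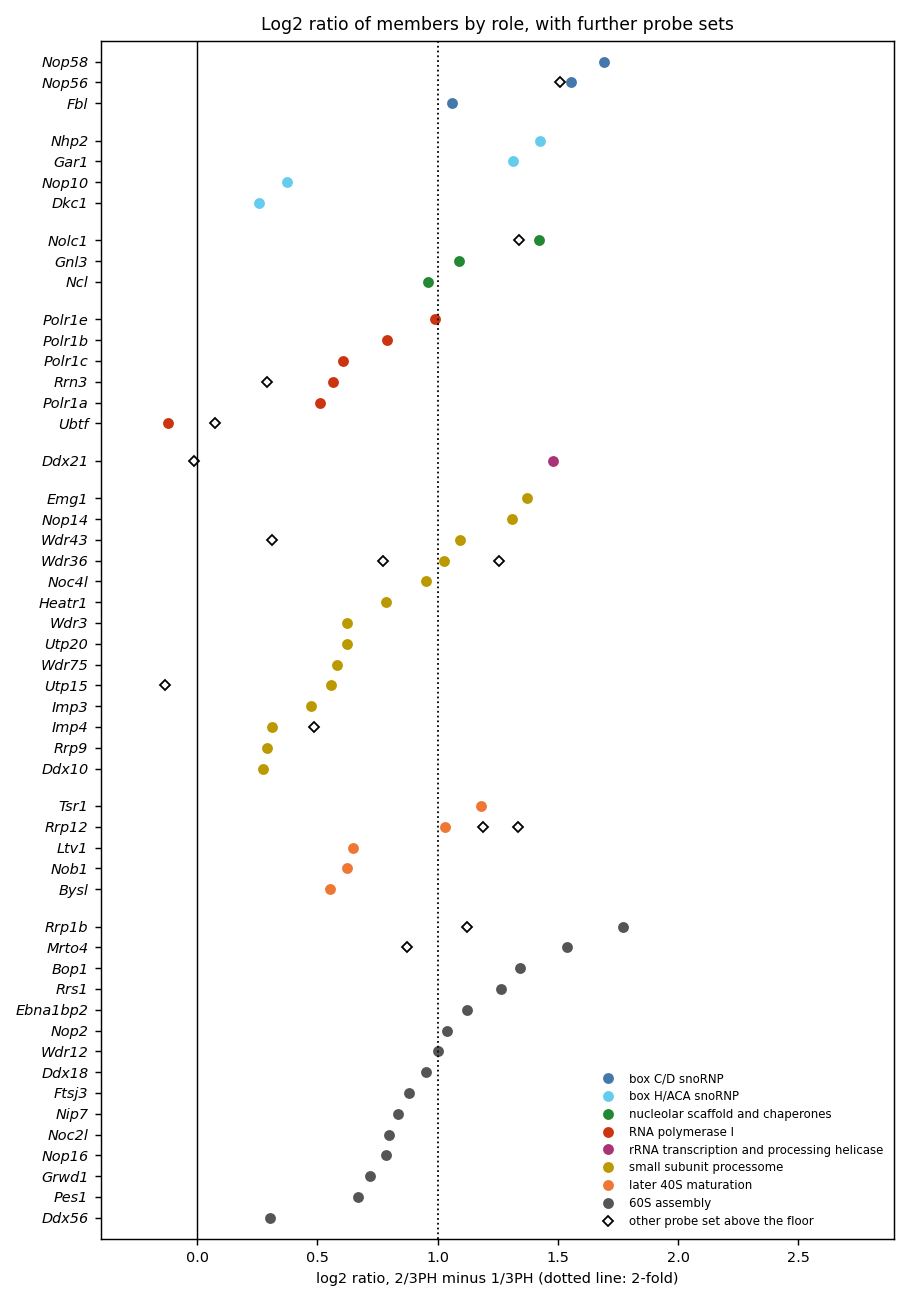
Log2 ratio, 2/3PH minus 1/3PH, of the 51 genes above the floor, coloured by role (filled circles), with further probe sets of the same gene above the floor (open diamonds); the dotted line is 2-fold. All 3 box C/D genes lie right of the dotted line and all 6 RNA polymerase I genes left of it, and the Ddx21 diamond lies at -0.012, far from its circle at 1.48.

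The small subunit processome, the large particle that assembles on the nascent transcript, had 4 of 14 genes past 2-fold and none below 0, with a median log2 ratio of 0.62. Emg1, a methyltransferase that acts on small subunit RNA, led it with signals of 516 and 1337, a log2 ratio of 1.37. Nop14, a structural factor of the particle, had signals of 181 and 449.7, a log2 ratio of 1.31. Its partner Noc4l had signals of 178 and 344, a log2 ratio of 0.95. Among the early-binding proteins that are also known to be needed for transcription by RNA polymerase I, Wdr43 had signals of 363 and 775, a log2 ratio of 1.09. On a second Wdr43 probe set, at 251 and 311, the log2 ratio was 0.31.

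The other early-binding proteins were below 2-fold. Heatr1, a very large repeat protein of the same subcomplex, had signals of 541 and 932, a log2 ratio of 0.78. Wdr75 had signals of 532 and 796, a log2 ratio of 0.58, and Utp15, a further WD-repeat protein of that subcomplex, signals of 625 and 918, a log2 ratio of 0.56. A second Utp15 probe set, at 188 and 171, gave -0.13, so the direction for this gene was not shared by its probe sets.

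WD-repeat proteins of a second subcomplex lay on both sides of the limit. Wdr36 had signals of 1119 and 2282, a log2 ratio of 1.03, with 0.77 and 1.25 on its other probe sets above the floor. Wdr3 had signals of 633 and 975, a log2 ratio of 0.62. Utp20, a very large scaffold protein of the particle, had signals of 332 and 510.2, a log2 ratio of 0.62.

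The lowest ratios of this group were those of the helicase Ddx10 and of Imp3, Imp4 and Rrp9. Imp3, Imp4 and Rrp9 are among the proteins of the U3 snoRNP, the particle that pairs with the precursor to start its folding. Imp3 had signals of 1117 and 1552, a log2 ratio of 0.47. Imp4 had signals of 1310.0 and 1623, a log2 ratio of 0.31, and 0.49 on a second probe set. Rrp9, which binds the U3 RNA itself, had signals of 269 and 328, a log2 ratio of 0.29. Ddx10 had signals of 474 and 573, a log2 ratio of 0.27. All 4 ratios were above 0, and on the probe sets used those of Imp4, Rrp9 and Ddx10 were below 0.33, the SD between probe sets of a gene.

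Factors that finish the small subunit had 2 of 5 genes past 2-fold and a median of 0.65. Tsr1, a GTPase-like factor that holds the nearly complete particle inactive, had signals of 1282 and 2904, a log2 ratio of 1.18. Rrp12, a repeat protein known for its part in export from the nucleus, had signals of 266 and 544, and its 3 probe sets above the floor gave 1.03, 1.19 and 1.33. Ltv1, an assembly factor released late, had signals of 585 and 917, a log2 ratio of 0.65. Nob1 is the endonuclease that makes the last cut in the small subunit RNA, with signals of 414 and 638 and a log2 ratio of 0.62. Bysl, bystin, had signals of 362 and 531, a log2 ratio of 0.55.

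Large subunit assembly held the highest value of the whole list. Of its 15 measured genes, 7 were past 2-fold and none was below 0, with a median log2 ratio of 0.95. Rrp1b, a nucleolar protein that also binds a protein phosphatase, had signals of 316 and 1079, a 3.41-fold difference. A second Rrp1b probe set, whose 1/3PH signal of 68.7 lay under the floor, had a 2/3PH signal of 149.6 and a log2 ratio of 1.12. Mrto4, which holds the place of a stalk protein on the precursor, had signals of 536 and 1555, a log2 ratio of 1.54, and 0.87 on a second probe set.

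Bop1, Pes1 and Wdr12 form a stable complex needed for the large subunit RNA, and its members differed. Bop1 had signals of 272 and 689.6, a log2 ratio of 1.34. Wdr12 had signals of 467 and 935, a log2 ratio of 1.00 that lay on the 2-fold limit itself. Pes1 had signals of 373 and 591, a log2 ratio of 0.67. Only Bop1 of the 3 lay clearly past 2-fold.

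Rrs1, which helps bring the small RNA of the large subunit into the particle, had signals of 630.0 and 1514, a log2 ratio of 1.27. Ebna1bp2, a scaffold protein, had signals of 1462 and 3183, a log2 ratio of 1.12. Nop2, a methyltransferase of large subunit RNA, had signals of 342 and 702, a log2 ratio of 1.04. These were the remaining genes of the group past 2-fold.

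Below 2-fold were the helicase Ddx18, with signals of 442 and 855 and a log2 ratio of 0.95, and the methyltransferase Ftsj3, with 541 and 996 and a log2 ratio of 0.88. Nip7, an RNA-binding protein of the early particle, had signals of 945 and 1689, a log2 ratio of 0.84. Noc2l, a nucleolar partner of Noc3l, had signals of 476 and 827, a log2 ratio of 0.80. Nop16 is a small nucleolar protein of the same pathway, with signals of 1170.4 and 2015 and a log2 ratio of 0.78. Grwd1, a chaperone of a large subunit ribosomal protein, had signals of 395 and 650.0, a log2 ratio of 0.72. Ddx56, another helicase, had the lowest value of the group, with signals of 760.2 and 939 and a log2 ratio of 0.30.

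For 12 listed genes several probe sets lay above the floor. In 9 of the 12 all of them had ratios above 0, and the exceptions were Ubtf, Utp15 and Ddx21. In 4 genes, Nop56, Nolc1, Rrp12 and Rrp1b, all of them were past 2-fold. With the dimmest probe set above the floor in place of the brightest, 18 of 51 genes were at least 2-fold higher and the median was 0.80.

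Ribosome biogenesis needs many more factors, and 137 of them outside the 54 were listed by role. Of these, 126 were above the floor, 113 had a ratio above 0, 14 (11.1%) passed 2-fold upward and none downward, and the median log2 ratio was 0.54. The background is the same 6.12% of all genes. The count was between 8 and 55 over the processing alternatives other than the fold limit, and the median between 0.45 and 0.97. The median of the 54-gene list was the higher of the pair under each of these alternatives, but with 1 array per group that difference was not tested. Median centring and both spiked-control scalings add a constant and could not have changed the order.

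Among further factors of large subunit assembly, 7 of 41 were at least 2-fold higher and 1 was below 0, at a median of 0.55. Pak1ip1, a WD-repeat protein of the nucleolus, had signals of 310 and 1073, a log2 ratio of 1.79 that was above every value in the 54-gene list. Rpf2, which works with Rrs1, had signals of 351 and 980.3, a log2 ratio of 1.48, and Nle1 had 183 and 445, a log2 ratio of 1.28. Efl1, a GTPase that acts in the last steps of large subunit maturation, had a log2 ratio of 0.013, Nop53 one of 0.0063 and the helicase Ddx54 one of -0.040. With quantile normalization 5 of the 41 were below 0, so the sign of values this close to 0 depends on the scaling.

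Further small subunit factors had 2 of 40 past 2-fold (5.0%, against 6.12% of all genes) and a median of 0.48. Pno1, the partner of Nob1, had signals of 860.4 and 1781, a log2 ratio of 1.05, Pwp2 one of 1.02 and Nop9 one of 0.88. The lowest were Ngdn at -0.10, Rcl1 at -0.25 and Nol6 at -0.25, which all turned positive with poly-A scaling. Proteins that assemble snoRNPs had 8 of 8 ratios above 0 and none past 2-fold, at a median of 0.63. Znhit3 stood at 0.78, Shq1, the chaperone of dyskerin, at 0.78, the helicase Ruvbl2 at 0.72, Znhit6 at 0.43, Pih1d1 at 0.33 and Rpap3 at 0.061.

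Additional genes of RNA polymerase I and of ribosomal DNA control had a median of 0.39, with 1 of 17 past 2-fold (5.88%, against 6.12% of all genes) and 4 below 0. Tcof1, treacle, a nucleolar phosphoprotein that binds this polymerase, had signals of 126 and 259, a log2 ratio of 1.04. Taf1d stood at 0.93 and Nol11 at 0.83. At the low end were the termination factor Ttf1 at -0.28, the deacetylase Sirt7 at -0.27 and Taf1b at -0.24, which all turned positive with poly-A scaling. The RNA exosome and RNase MRP, which trim and cut the precursor, had 4 of 20 past 2-fold and a median of 0.55. Mphosph6 stood at 1.27, Exosc2 at 1.22 and Pop7 at 1.09, and Pop1 at -0.17, Exosc5 at -0.32 and Rpp21 at -0.38, all of the latter again positive with poly-A scaling.

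**Figure D4:**
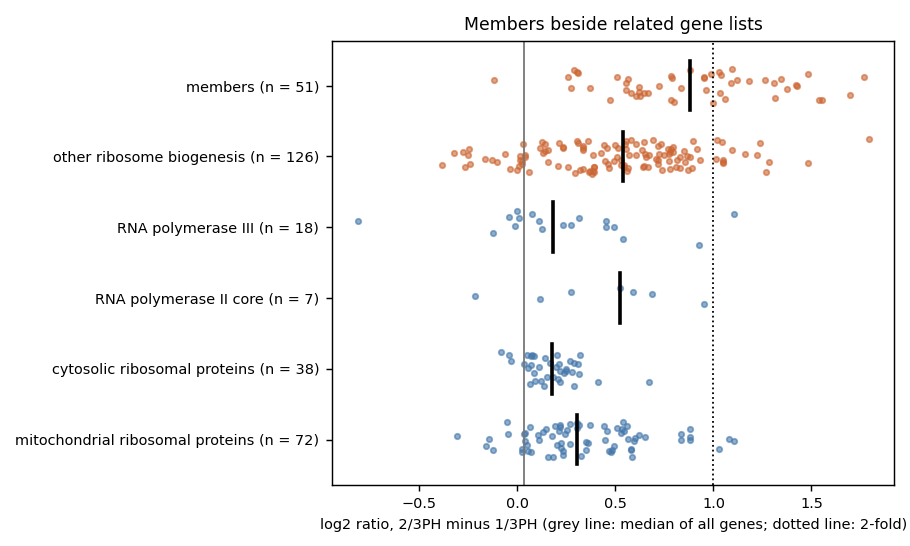
Log2 ratio of each gene above the floor in 6 lists, 1 point per gene with random vertical scatter; black bars are list medians, the grey line is the median of all genes above the floor, 0.035, and the dotted line is 2-fold. The bar of the 51 listed genes is at 0.88, that of the other ribosome biogenesis genes at 0.54, and the cytosolic ribosomal protein points lie in a narrow band around 0.17.

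The proteins of the ribosome itself were compared with the factors that build it. Of 38 cytosolic ribosomal protein genes above the floor, none was 2-fold higher or lower and the median was 0.17, with 35 above 0. The median was 0.34 with quantile normalization and with the loess trend removed, and 0.41 and 0.60 with hybridisation control and poly-A scaling, and all 38 were above 0 under these 4 alternatives. Rpl39 had the largest ratio, 0.67, but at signals of 106 and 169, near the floor and far below the other genes named here. Next were Rpl4 at 0.41, with signals of 14151 and 18816, and Rpl35a at 0.32. Rps16 stood at -0.032, Rpl26 at -0.045 and Rps29 at -0.084, the latter all positive under the same alternatives. Only 41 of the 78 listed genes had a named probe set, and many probe sets of this family may share related transcripts. The 41 had summed signals of 707880 after 1/3PH and 784207 after 2/3PH, against 47587 and 90770 for the 52 matched ribosome biogenesis genes. How far the ratios depend on that difference in signal was not tested beyond the alternatives given. Mitochondrial ribosomal protein genes had 3 of 72 past 2-fold (4.17%, against 6.12% of all genes), Mrpl12 at 1.10, Mrps6 at 1.08 and Mrps27 at 1.03, with a median of 0.30. Mrps9 stood at -0.15, Mrpl54 at -0.16 and Mrpl36 at -0.31, all positive with poly-A scaling.

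The other nuclear RNA polymerases were set beside RNA polymerase I. RNA polymerase III, which makes the small RNA of the large subunit and transfer RNAs, had with its factors a median of 0.18 over 18 genes. Polr3g was at 1.11, Gtf3a, which is needed for that small ribosomal RNA, at 0.93 and Polr3e at 0.54, while Polr3c was at -0.044, Gtf3c1 at -0.12 and the initiation factor Brf1 at -0.82, or -0.38 with poly-A scaling, where the first pair turned positive. The 7 genes of the RNA polymerase II core had a median of 0.53, with Polr2c at 0.95, Polr2g at 0.69, Polr2b at 0.59, Polr2d at 0.27, Polr2j at 0.12 and Polr2a at -0.22, which was positive under both spiked-control scalings. The RNA polymerase I median of 0.59 over 6 genes lay near that of RNA polymerase II. The lists differ in make-up, since that of RNA polymerase I includes the initiation factors Rrn3 and Ubtf and that of RNA polymerase II holds core subunits only. No test separates these lists.

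Myc, a transcription factor known to raise ribosome biogenesis genes, had signals of 332 and 528, a log2 ratio of 0.67. The 14 listed upstream regulators above the floor ranged from -0.96 to 1.00, with a median of 0.17. The highest was Mdm2, which encodes the ligase that restrains p53, at signals of 700.3 and 1405, a log2 ratio of 1.00 and the only one of the 14 past 2-fold. The kinase Akt1 stood at 0.52. The 4 with ratios below 0 were all antagonists of Myc that share its partner Max. Mxd4 was at -0.96, Mnt at -0.49, Mxd1 at -0.29 and Mxi1 at -0.10, of which the last pair turned positive with poly-A scaling. Max itself was at 0.069. With quantile normalization 5 of the 14 were below 0.

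Both arrays carried hepatocyte transcripts, with albumin (Alb) at signals of 34570.2 and 29468 and all 10 matched hepatocyte markers above the floor. Of these 10, 9 had ratios below 0 on the deposited scale, with summed signals of 294731 and 258475 and a median of -0.17. That median turned to 0.046 with quantile normalization, 0.051 with the loess trend removed, and to 0.068 and 0.26 when the arrays were scaled to the hybridisation and the poly-A controls. Most markers of other liver cell types were also lower on the 2/3PH array on the deposited scale. All 11 macrophage and Kupffer cell markers were below 0, with summed signals of 19870.2 and 13037 and a median log2 ratio of -0.50, or -0.073 with poly-A scaling, where 4 of them turned positive. All 7 sinusoidal endothelial markers were below 0, with sums of 11915 and 7598 and a median of -0.66, or -0.23 with poly-A scaling, where 2 turned positive. Of the 8 stellate cell markers above the floor 5 were below 0, and sums over all 9 matched were 11348 and 6504. Below 0 were also 5 of 5 neutrophil and erythroid markers, with sums of 30146 and 14647. The 3 cholangiocyte markers above the floor had a median of 0.23, and sums over all 5 matched were 1293 and 1328. All 6 matched lymphocyte markers were under the floor, with sums of 272.0 and 202. The part of these cells in the result was not tested. In pooled tissue RNA, fewer cells of a type and less RNA per cell cannot be told apart, and the same holds for more.

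Labelled cRNA from long transcripts depends on RNA integrity, and the ratio of 3′ to 5′ signal was 1.58 for Gapdh after 1/3PH and 1.28 after 2/3PH, and 6.68 and 7.53 for beta-actin, in the same order. The spiked controls were dimmer on the 2/3PH array, so that scaling to them adds 0.24 (hybridisation controls) or 0.43 (poly-A controls) to every log2 ratio. That moves the median of all genes above the floor from 0.035 to 0.27 or 0.47, and the share of 2-fold calls that are higher from 62.4% to 82.2% or 92.5%. The median of the 51 listed genes was 0.85 above that of all genes, a gap that adding a constant cannot change. It was 0.81 with quantile normalization and 0.80 with the loess trend removed, which can change it. Over all the alternatives the gap ran from 0.76, with the dimmest probe set above the floor, to 0.89, with the floor at the 75th percentile.

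**Figure D5:**
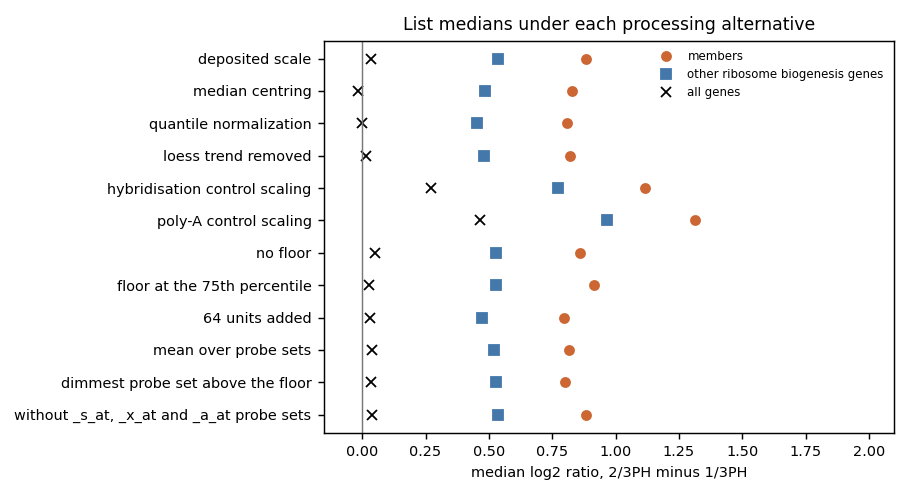
Median log2 ratio of the listed genes (circles), of other ribosome biogenesis genes (squares) and of all genes above the floor (crosses) under each processing alternative. The circles lie between 0.80 and 1.31 and are right of the squares and the crosses in each row; only scaling to the spiked controls moves the crosses far from 0.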

How the data were processed

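Liver RNA from 2 pools of 3 rats was measured on 1 Affymetrix array each. Per the labels' protocols, the authors computed signals with MAS 5.0 in GeneSpring 11.0. The deposited values, 1 for each of 31099 probe sets, were taken as log2 signals. Their base is not stated in the sources used here and was inferred: as powers of 2, both arrays had nearly the same mean without the extreme 2% at each end, 500.3 and 500.2. Every fold rests on that base. No source used here gives the scaling target or detection calls.

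Of 31042 probe sets that are not controls, 20826 had 1 gene symbol, updated to RefSeq GRCr8 by Entrez identifier. A further 436 had several and 9780 none listed, and neither kind was named. A single probe set per gene, the floor and the 2-fold limit were applied as given above. Every listed gene is named. Of the other ribosome biogenesis lists and the compared lists, those with the 3 highest and 3 lowest ratios are named, and of the upstream regulators Myc, with the rest by their range. Upstream regulators named beyond Myc were chosen after their values were seen. The members, lists and alternatives were chosen with earlier results of these data known. The procedure was tested on simulated data. With 1 array per group no test was made. Promoters come from RefSeq, taking the first start listed for a gene. Python 3.11.15 with pandas 2.3.3, numpy 2.4.6 and statsmodels 0.14.6 was used.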

Additional observations from a re-analysis of the deposited data

How the results depend on the processing

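The count of listed genes at least 2-fold higher was 21, and between 16 and 39 over the 11 alternatives of scaling, floor, low signals and probe set, and none was 2-fold lower under any of them. Scaling to the poly-A controls gave 39 genes and a median of 1.31 (16.4% of all genes), and limits of 1.5-fold and 3-fold gave 38 and 2 genes (15.8% and 2.24% of all genes). For the other ribosome biogenesis genes, where the count was 14, it was 8 with median centring, with quantile normalization, with the floor at the 75th percentile and with 64 units added. All genes past 2-fold as higher were then 5.52%, 5.56%, 4.97% and 4.47%, so that 8 of 126 under centring and quantile normalization lies near the background. It was 35 with hybridisation control scaling, 55 with poly-A scaling (median 0.97), 54 at 1.5-fold and 1 at 3-fold, where all genes gave 10.2%, 16.4%, 15.8% and 2.24%. With the dimmest probe set above the floor 1 of them, Sbds, was 2-fold lower, at signals of 167 and 82.0. The one called gene whose sign turned was Ddx21, at -0.012 with its dimmest probe set. Of 549 values of single listed genes under the alternatives, 488 moved by less than 0.33, and 51 of the remaining 61 came from poly-A scaling, which adds a constant. Many of the 488 could not have moved further. A changed floor leaves a gene's value as it is, and median centring and hybridisation control scaling add constants below 0.33. Genes with 1 probe set keep their value under the mean and dimmest probe set rules. The 488 are therefore no measure of how stable the values are. Both arrays are pools, so variation between rats is not measured, and the number of arrays limits the precision. No paired analysis was possible because each group has 1 array.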
